A study of Saccharomyces cerevisiae with 12 samples.

Results

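Translation efficiency, the amount of ribosome footprints that a gene yields for the amount of its mRNA, was described gene by gene in growing budding yeast of the genotype called Ded1. The genes described are those whose mean over the Ded1 libraries was 5 RPKM or more in footprints and also in mRNA, which took 4731 of the 6159 genes in the table (76.8%). RPKM, the deposited unit, is reads per kilobase of counted length, scaled to library depth. Of the 12 libraries of the series, 4 entered: 2 of ribosome footprints and 2 of poly(A) mRNA, numbered 1 and 2. The cells were Saccharomyces cerevisiae of the SK1 strain, grown at 30 °C in the rich medium YEPD to an optical density of 0.6 and given 100 µM cycloheximide, which arrests elongating ribosomes, for 1 min before harvest. All 3 genotypes share that strain and treatment. In Ded1 the DED1 regulatory regions drove DED1, in Dbp1 they drove DBP1, and in 2xDbp1 they drove 4 copies of DBP1. The Dbp1 and 2xDbp1 libraries are used here for 1 comparison at the end. The labels do not say whether libraries 1 and 2 came from separate cultures, so each p-value measures only the spread between these samples.

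Ribosome profiling sequences the mRNA fragments that translating ribosomes protect from nuclease. Set against the mRNA level, the footprint level reports how densely a message is loaded, which depends on how often ribosomes initiate on it and on how fast they elongate. DED1 and its paralog DBP1 encode DEAD-box RNA helicases, enzymes that unwind RNA with ATP and act in the scanning of mRNA leaders during initiation.

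The 2 Ded1 mRNA libraries held 7.62 M and 8.5 M reads in genes and the footprint libraries 8.7 M and 13.11 M, as recovered from the deposited values. At the bound of 5 RPKM, a gene with 1 kb of counted length had 38.1 to 42.5 mRNA reads and 43.5 to 65.6 footprint reads. Of 10 marker genes of mitotic growth, 10 were at 5 RPKM or more in mRNA, with means from 23.9 RPKM to 6606 RPKM. Of 10 marker genes of meiosis and sporulation, 2 reached 5 RPKM in mRNA and 1 in footprints, none was at 0, and together they summed to 51.9 and 36.5 RPKM of mRNA. In bulk cultures, fewer cells in a state and less RNA per cell cannot be told apart. Genes next to the bound were close to each other: CDC15 was kept with footprints of 4.61 and 5.51 RPKM, and CIN1 was left out with 4.81 and 5.11 RPKM.

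Translation efficiency was taken as the log2 ratio of footprint to mRNA RPKM within each same-numbered pair of libraries. The median gene had a ratio of 0.654 in pair 1 and 0.677 in pair 2 (log2 of -0.61 and -0.56). These medians were subtracted, so that 0 marks the median gene and every statement of higher or lower below is relative to it. Efficiencies spanned a wide range across genes: the 5th percentile was at -1.43 and the 95th at 1.80, which is a 9.38-fold span, with 1 SD over genes of 1.01. The pairs differed far less, by a median of 0.132 on the log2 scale and by 0.475 at the 95th percentile over genes. Across the 4731 genes, which are not independent replicates, efficiencies in pair 1 and pair 2 had a Pearson r of 0.972. The median standard error of a gene's efficiency was 0.109, against 0.0617 from read counting alone.

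A gene was called where limma's test of footprint against mRNA gave an adjusted p under 0.05 and the efficiency was at least 2-fold from the median gene. The test took the libraries as unpaired, so its p-values and standard errors do not use the pairing. By this rule 808 genes were translated better than the median gene (17.1% of those tested) and 571 worse (12.1%). These percentages are the background for the gene groups described below. Without centring on the median gene, on the deposited RPKM ratios themselves, the counts were 335 and 1526.

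**Figure D1:**
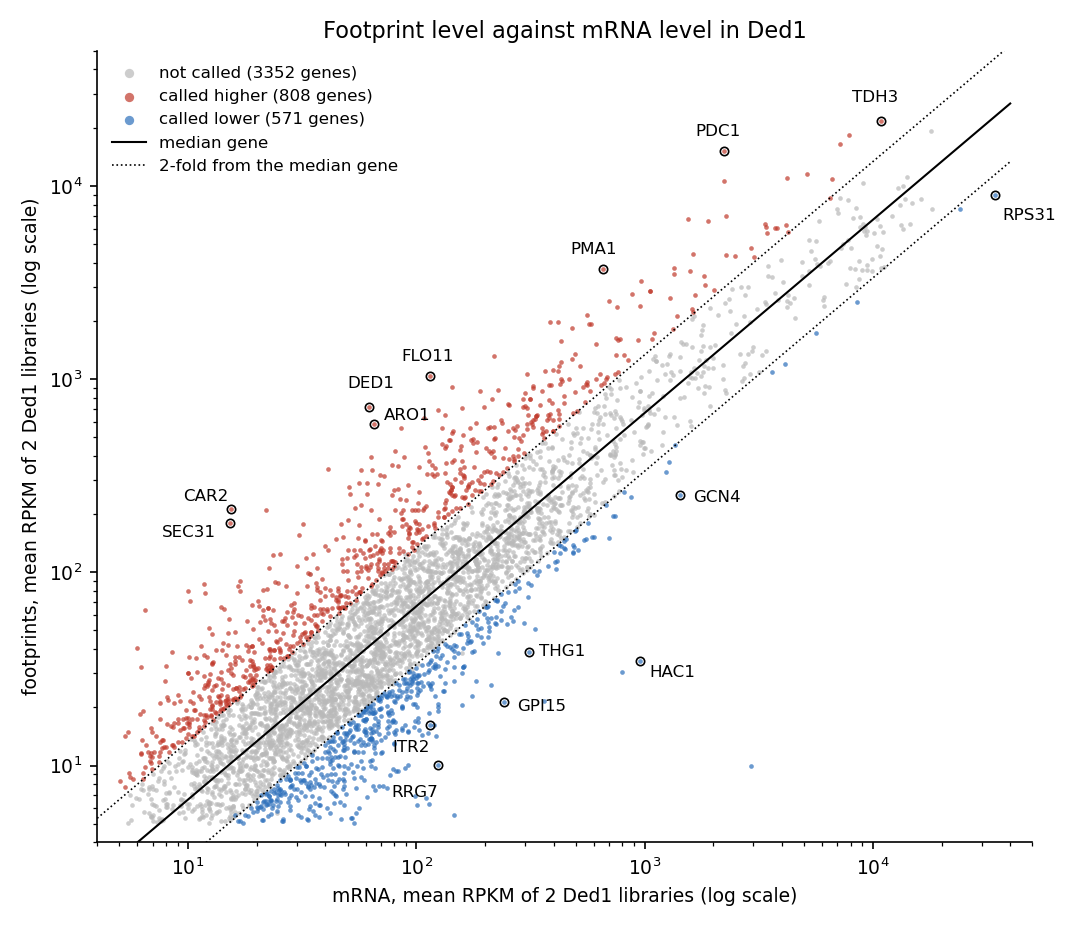
Mean footprint RPKM against mean mRNA RPKM of the 2 Ded1 libraries of each type for 4731 genes, both axes on a log scale; the solid line is the median gene and the dotted lines lie 2-fold from it. The 808 genes called higher lie above the band and the 571 called lower lie below it, with CAR2, SEC31 and DED1 far above and HAC1 and GCN4 far below.

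The best translated genes with at least 10 RPKM in both library types were led by CAR2, which encodes ornithine transaminase of arginine breakdown. Its mRNA was at 19.0 and 11.7 RPKM and its footprints at 270 and 153 RPKM. The efficiency was 4.35 ± 0.34 (log2 ± SE, n = 2 libraries of each type), or 20.4-fold above the median gene (limma adjusted p = 0.000168). Both library types of CAR2 were higher in replicate 1, so the ratio moved little between pairs. SEC31, the outer coat protein of COPII vesicles that leave the endoplasmic reticulum, had 18.5 and 12.2 RPKM of mRNA and 192 and 168 RPKM of footprints, an efficiency of 4.16. DED1 itself stood next, with 63.0 and 61.5 RPKM of mRNA and 710 and 730 RPKM of footprints. Its efficiency of 4.12 ± 0.08 placed it 17.3-fold above the median gene (limma adjusted p = 3.89e-05).

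The other 9 of the 12 highest genes encode proteins of several kinds. ABP1, an actin-binding protein of cortical patches, had an efficiency of 3.86, and PAN1, which acts with actin in endocytosis, had 3.60. The cell surface mucin gene FLO11 had mRNA at 147 and 82.4 RPKM and footprints at 1102 and 975 RPKM, an efficiency of 3.82. Its coding sequence holds repeats, to which reads are hard to assign. ARO1 encodes the enzyme that carries most of the shikimate steps to aromatic amino acids. It had 67.3 and 63.8 RPKM of mRNA and 517 and 651 RPKM of footprints, an efficiency of 3.73. URA2, the first enzyme of pyrimidine synthesis, followed with 3.64. SCH9, a growth-promoting kinase under TORC1, had 3.50, the HMG-box protein gene IXR1 had 3.38 and the cell wall protein gene PRY3 had 3.31. PDC1, which encodes the main pyruvate decarboxylase of fermentation, was the one very abundant message in this set: 2454 and 1990 RPKM of mRNA carried 15692 and 14574 RPKM of footprints, an efficiency of 3.36. In each of these 12 genes both pairs lay at least 3.20 above the median gene.

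The worst translated gene with a standard name was HAC1, the transcription factor of the unfolded protein response, whose unspliced message is known to be held untranslated in unstressed cells. Its mRNA was abundant, at 957 and 962 RPKM, and its footprints were at 41.2 and 28.7 RPKM. The efficiency was -4.21 ± 0.19 (log2 ± SE, n = 2 libraries of each type), which is 18.5-fold below the median gene (limma adjusted p = 5.1e-05). GCN4, the activator of amino acid biosynthesis genes whose leader holds upstream open reading frames that limit its translation in rich medium, was also low. It had mRNA at 1339 and 1519 RPKM and footprints at 166 and 337 RPKM, an efficiency of -2.0 ± 0.30 (limma adjusted p = 0.0018). GCN4 footprints were higher in replicate 2, and both replicates lay below the median gene. PCL5, a cyclin that directs the degradation of Gcn4, had mRNA at 143 and 282 RPKM and footprints at 21.7 and 30.6 RPKM, an efficiency of -2.37.

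HAC1 and PCL5 belong to the lowest 12 called, named genes whose footprint and mRNA means each reached 10 RPKM, without overlap with a named gene. Low genes with fewer footprints, such as ATG5 at -3.56 and KAR1 at -2.79, are thus not among them. The remaining genes of these 12 act in several processes. RRG7 had 131 and 120 RPKM of mRNA, 11 and 9.23 RPKM of footprints and an efficiency of -3.04. GPI15, which acts in the first step of glycolipid anchor synthesis, had 244 and 242 RPKM of mRNA, 19.2 and 23.7 RPKM of footprints and an efficiency of -2.92. Further members were RRN9 of the RNA polymerase I activating factor at -2.61, YNG1 of a histone acetyltransferase complex at -2.52, and THG1, the enzyme that adds a guanosine to histidine tRNA, at -2.43. CNL1 was at -2.37, NSE3 of the Smc5/6 complex at -2.30, the mannosyltransferase gene MNT2 at -2.29, the inositol transporter gene ITR2 at -2.22 and MCO6 at -2.21. For MCO6, a message with 99 nt of counted length, the pairs gave -2.53 and -1.90. One unnamed gene, YMR013W-A, lay further down at -7.76, with 2955 and 2925 RPKM of mRNA and 5.47 and 14.5 RPKM of footprints. It is given because it is the lowest of all, and its counted length could not be recovered.

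**Figure D2:**
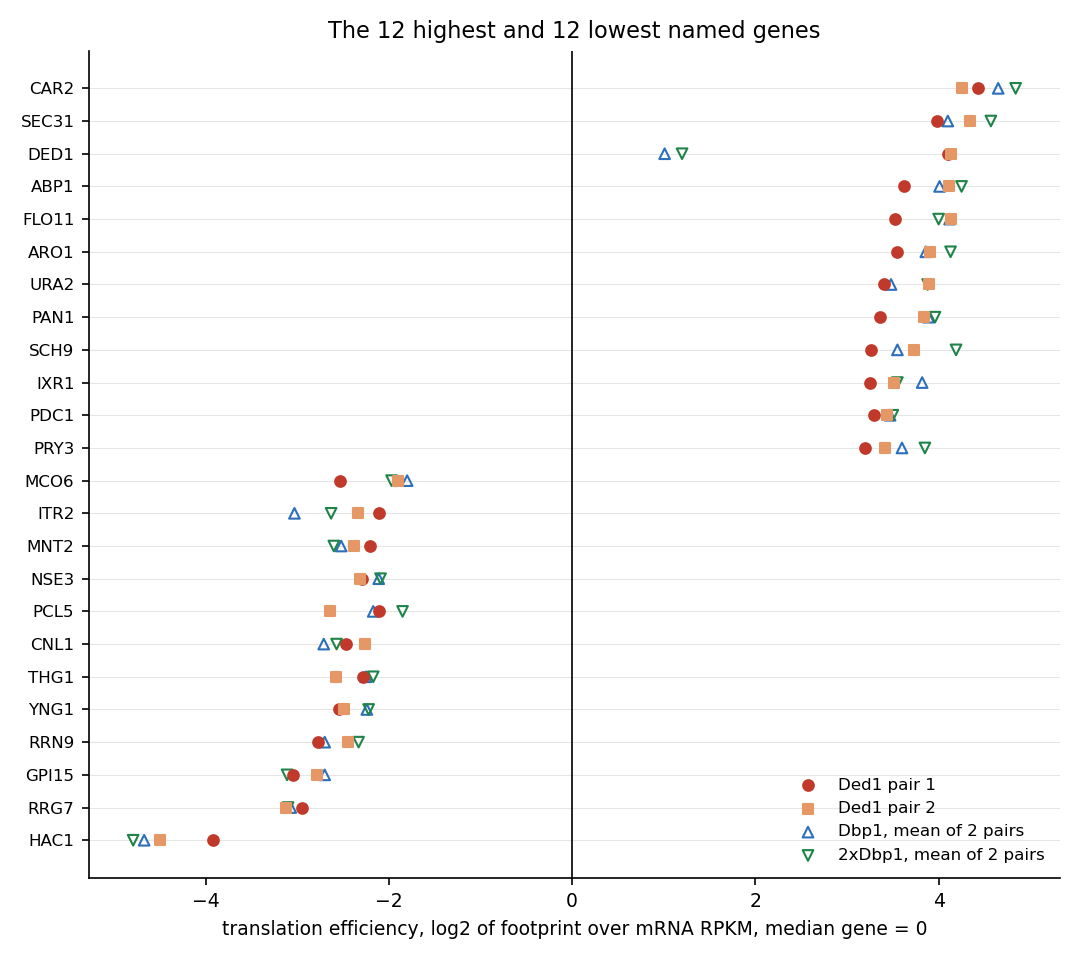
Translation efficiency (log2, median gene = 0) of 12 high and 12 low named genes. Each has 1 point per Ded1 pair and the mean of 2 pairs in Dbp1 and in 2xDbp1. The sets hold the most extreme called genes whose footprint and mRNA means each reached 10 RPKM, without overlap with a named gene. Pairs lie close together beside the gap between the sets, and DED1 is the gene whose Ded1 points lie furthest from those of the other genotypes.

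The gene groups were read against the background of 17.1% called higher and 12.1% called lower and the median of 0. On the deposited ratios without centring, each list median was lower by 0.58 to 0.59, which moved 17 of 40 lists from above 0 to below it. Groups are given with their median, the number of measured members and the calls.

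Of the factors that carry out translation, none of the 67 genes measured in the lists of initiation factors, elongation and termination factors and aminoacyl-tRNA synthetases was called lower. Among 15 elongation and termination factors, 8 were called higher, with a median of 1.29. Against genes of similar length, where the median of 1 of 20 length classes took the place of the median gene (an alternative chosen after seeing the data), the list median was 0.77. EFT1 and EFT2, which encode the same translocation factor eEF2, had efficiencies of 2.53 and 2.43, but such near-identical copies share reads and their levels are uncertain. CAM1, a subunit of elongation factor 1B, was at 2.37. YEF3, the fungal elongation factor 3, had 1728 and 1522 RPKM of mRNA and 4486 and 4440 RPKM of footprints, an efficiency of 2.05. DOM34, which releases stalled ribosomes, was the lowest member at -0.68. Of 31 initiation factors, 15 were called higher, with a median of 0.75. After DED1 the highest was PAB1, the poly(A)-binding protein, with 244 and 192 RPKM of mRNA, 1342 and 1280 RPKM of footprints and an efficiency of 3.18. EAP1, which binds the cap-binding protein eIF4E, followed with 2.83. SUI1, which encodes eIF1 and is abundant at 2644 and 2586 RPKM of mRNA, was the lowest at -0.37. Among 21 aminoacyl-tRNA synthetases, 11 were called higher, with a median of 1.17 (0.81 against genes of similar length). The aspartate enzyme gene DPS1 was at 2.73, the glutamate enzyme gene GUS1 at 2.11 and the tryptophan enzyme gene WRS1 at -0.08.

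Ribosomal protein genes as a whole sat at the median gene. Of 125 measured, 17 were called higher and 5 lower, with a median of 0.06 and quartiles at -0.49 and 0.66. The large subunit had a median of 0.18 over 73 genes and the small subunit -0.14 over 52, and the small-subunit median became 0.09 against genes of similar length. Single members differed widely within either subunit. RPP0, the base of the ribosomal stalk, had mRNA at 2016 and 1791 RPKM and footprints at 6918 and 6205 RPKM, an efficiency of 2.37. RPS15 was at 2.20. At the other end RPS31, made as a fusion to ubiquitin, had the lowest value, -1.36, with 35279 and 33487 RPKM of mRNA and 9234 and 8607 RPKM of footprints. RPL35B was at -1.31, RPS17B at -1.19, RPL42B at -1.11 and RPS12 at -1.08. Many of these genes have near-identical copies, so the split between copies is uncertain. Ribosomal protein genes with an intron had a median of 0.04 (76 genes) and those without one 0.18 (49 genes).

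Genes that build ribosomes were also near the median gene. In the SSU processome, the assembly machine of the small subunit, 9 of 53 were called higher and 1 lower, with a median of 0.27. Without mRNA replicate 1, 2 were called lower. NOP1, the methylating enzyme of box C/D snoRNPs, was the highest at 2.02 and RCL1 the lowest at -1.22. Of 64 assembly factors of the large subunit, 6 were called higher and none lower, with a median of 0.18, and 2 became lower calls without mRNA replicate 1 or without footprint replicate 2. REA1, the large AAA-ATPase of that pathway, was at 2.07 and ERB1 at 2.04, and LOC1 was at -1.0.

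Glycolysis and fermentation had the largest share of genes called higher of the 42 lists: 17 of 20, or 85%, with a median of 1.61 and none lower. PFK1 and PFK2, the subunits of phosphofructokinase, were at 3.06 and 2.89. For PFK1, 135 and 115 RPKM of mRNA carried 702 and 678 RPKM of footprints. CDC19, the main pyruvate kinase, had 2334 and 2138 RPKM of mRNA and 10561 and 10524 RPKM of footprints, an efficiency of 2.83. ENO2 was at 1.97, ADH1 at 1.79, TDH3 at 1.58 and PGK1 at 1.29. The aldolase gene FBA1 at 0.67 was not called, nor was the phosphoglycerate mutase gene GPM1, the lowest of the list at 0.23, with mRNA at 14177 and 14170 RPKM. All 20 measured members lay above the median gene in efficiency.

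Other metabolic lists were also on the high side. In the TCA cycle 17 of 24 were called higher and none lower, with a median of 1.18. KGD1 of the oxoglutarate dehydrogenase was at 2.42, SDH1 of succinate dehydrogenase at 2.25 and PYC2, a pyruvate carboxylase, at 2.04. CIT2, the peroxisomal citrate synthase, was the lowest at -0.54. In trehalose and glycogen storage 4 of 11 were called higher, with a median of 0.72, led by TPS3 at 2.09 and TPS1 at 1.88. The remaining 9 genes of that list fell under 5 RPKM in at least 1 library type. With the bound on mRNA alone the median of that list was 0.32.

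Amino acid biosynthesis had 25 of 66 called higher and 4 lower, with a median of 0.78. The 4 lower calls became 1 without mRNA replicate 2 and likewise 1 without footprint replicate 1. Beside ARO1, GLT1 (glutamate synthase) was at 2.97 and ILV6 (a regulatory subunit of branched-chain synthesis) at 2.52. ARG2, the first enzyme of ornithine synthesis, had 79.0 and 103 RPKM of mRNA, 19.1 and 26.5 RPKM of footprints and an efficiency of -1.41. LEU2 was at -1.21 and LYS5 at -1.12. Both library types of this list were higher in replicate 2: it held 2.34% and 3.09% of the mRNA reads and 3.25% and 4.26% of the footprints in replicates 1 and 2. In methionine synthesis and sulfur assimilation 11 of 24 were called higher and 1 lower, with a median of 0.82, and 3 were lower without footprint replicate 2. CYS3, which makes cysteine from cystathionine, had 158 and 130 RPKM of mRNA, 1003 and 813 RPKM of footprints and an efficiency of 3.24. The methionine synthase gene MET6 was at 2.75 and the adenylylsulfate kinase gene MET14 at -1.53.

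In purine and pyrimidine synthesis 11 of 30 were called higher and 1 lower (none lower without footprint replicate 1), with a median of 0.49. ADE3, an enzyme of folate metabolism, was at 2.95. URA10, the minor isozyme of orotate phosphoribosyltransferase, was at -1.32. For ergosterol synthesis 6 of 25 were called higher and none lower, with a median of 0.50, from NCP1, the reductase that serves the P450 enzymes, at 2.35 to ERG2 at -0.85. Fatty acid and phospholipid synthesis had 8 of 27 called higher and 1 lower, with a median of 0.28 (0.57 against genes of similar length). Lower calls numbered 3 without mRNA replicate 1, 2 without footprint replicate 1 and 2 without footprint replicate 2. Its highest members were the giant enzymes FAS2 at 3.31, FAS1 at 3.16 and ACC1 at 2.71. FAS1 mRNA was at 132 and 83.4 RPKM and its footprints at 654 and 598 RPKM, so the mRNA libraries differed more than the footprint libraries.

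Mitochondrial lists lay on both sides of the median gene. Of 40 respiratory chain and ATP synthase genes, 12 were called higher and 1 lower (none lower without mRNA replicate 2), with a median of 0.42. ATP1, the alpha subunit of the ATP synthase, had 486 and 481 RPKM of mRNA, 1258 and 1291 RPKM of footprints and an efficiency of 1.99. COX9 was at 1.63, and COX5B, an isoform of cytochrome oxidase subunit V that is known to be used under low oxygen, was at -1.11. Protein import had 8 of 37 called higher and 4 lower, with a median of 0.45. The matrix chaperone gene SSC1 was at 2.47 and the outer membrane channel gene TOM40 at 2.33, while IMP1 and IMP2 of the inner membrane peptidase were at -1.59 and -1.78. Mitochondrial ribosomal proteins were lower as a list, with a median of -0.27 over 76 genes, although it was -0.05 against genes of similar length. In this list 4 were called higher, MRPL4 at 2.37 leading, and 3 lower, namely RSM26 and MRPL15 at -1.07 and MRPL20 at -1.01. Those 3 lie at the 2-fold bound and none was called without mRNA replicate 1.

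Cytosolic chaperones had 13 of 32 called higher and none lower, with a median of 0.72. SSA2, an Hsp70, was at 2.84 with mRNA at 471 and 362 RPKM and footprints at 2141 and 1799 RPKM. STI1, the co-chaperone between Hsp70 and Hsp90, was at 2.69 and the chaperonin subunit gene CCT5 at -0.15. Of 34 proteasome genes, 1 was called higher and none lower, with a median of -0.05 (0.15 against genes of similar length). PUP1, the one called, was at 1.13 and RPN8 at -0.98. Without mRNA replicate 1, 2 were called higher, and 1 was called lower without mRNA replicate 2 or without footprint replicate 2. General stress genes had 25 of 43 measured, of which 8 were called higher and 1 lower (none lower without footprint replicate 1), with a median of 0.55. The glucokinase gene GLK1 was at 2.16 and MSC1 at -1.01.

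Autophagy genes were among the lists with the lowest medians, at -0.42 over 24 measured genes of 31, with 2 called higher and 4 lower (16.7% against the background of 12.1%). The higher calls were 1 without mRNA replicate 2 or without footprint replicate 1. ATG5, which is joined to Atg12, had 108 and 119 RPKM of mRNA and 6.83 and 5.82 RPKM of footprints, an efficiency of -3.56. ATG12 itself, a ubiquitin-like protein, was at -2.50 and ATG10, the enzyme that joins them, at -2.03. These 3 values rest on 36 to 63 footprint reads per library. ATG33, which acts in mitophagy, was the highest at 1.58.

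The list with the highest median was that of cell wall mannoproteins and glucanases, at 1.71, with 27 of 33 called higher and none lower. HSP150, a secreted mannoprotein, had 421 and 347 RPKM of mRNA, 1966 and 2001 RPKM of footprints and an efficiency of 2.96. SIM1 was at 3.00 and FKS1, the catalytic subunit of glucan synthase, at 2.71. The chitin synthase gene CHS1 was the lowest at -0.06. Length made little difference here, as the median was 1.67 against genes of similar length.

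Membrane transport was mixed. Among 22 measured sugar and amino acid transporters of 35, 7 were called higher and 2 lower, with a median of 0.56. The lower ones were the inositol transporters: ITR2 had 116 and 114 RPKM of mRNA and 17.4 and 15.2 RPKM of footprints, and ITR1, at -1.56, had 279 and 241 RPKM of mRNA and 62.9 and 54.4 RPKM of footprints. The glucose transporter gene HXT2 was at 1.39 and the arginine permease gene CAN1 at 1.34. PTR2, a peptide transporter, had the highest value, 1.99, but its mRNA was at 53.3 and 15.2 RPKM and its footprints at 159 and 35.9 RPKM, and it was not called (limma adjusted p = 0.079). With same-numbered libraries as pairs it was called, with an adjusted p of 2.74e-09. For ion transport 8 of 34 were called higher and 3 lower, with a median of 0.42. PMA1, the proton pump of the plasma membrane, had 698 and 618 RPKM of mRNA, 3484 and 3901 RPKM of footprints and an efficiency of 3.08. The zinc transporter gene ZRT2 was at -1.72 and the metal transporter gene FET4 at -1.66. In the secretory list of translocation, glycosylation and vesicle coats 13 of 55 were called higher and 3 lower, with a median of -0.05 (0.08 against genes of similar length). SEC61, the pore of the translocon, was at 2.80, and SEC16, which organizes the sites where COPII vesicles form, at 3.38. OST6 of the glycosylating complex was at -1.46.

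**Figure D3:**
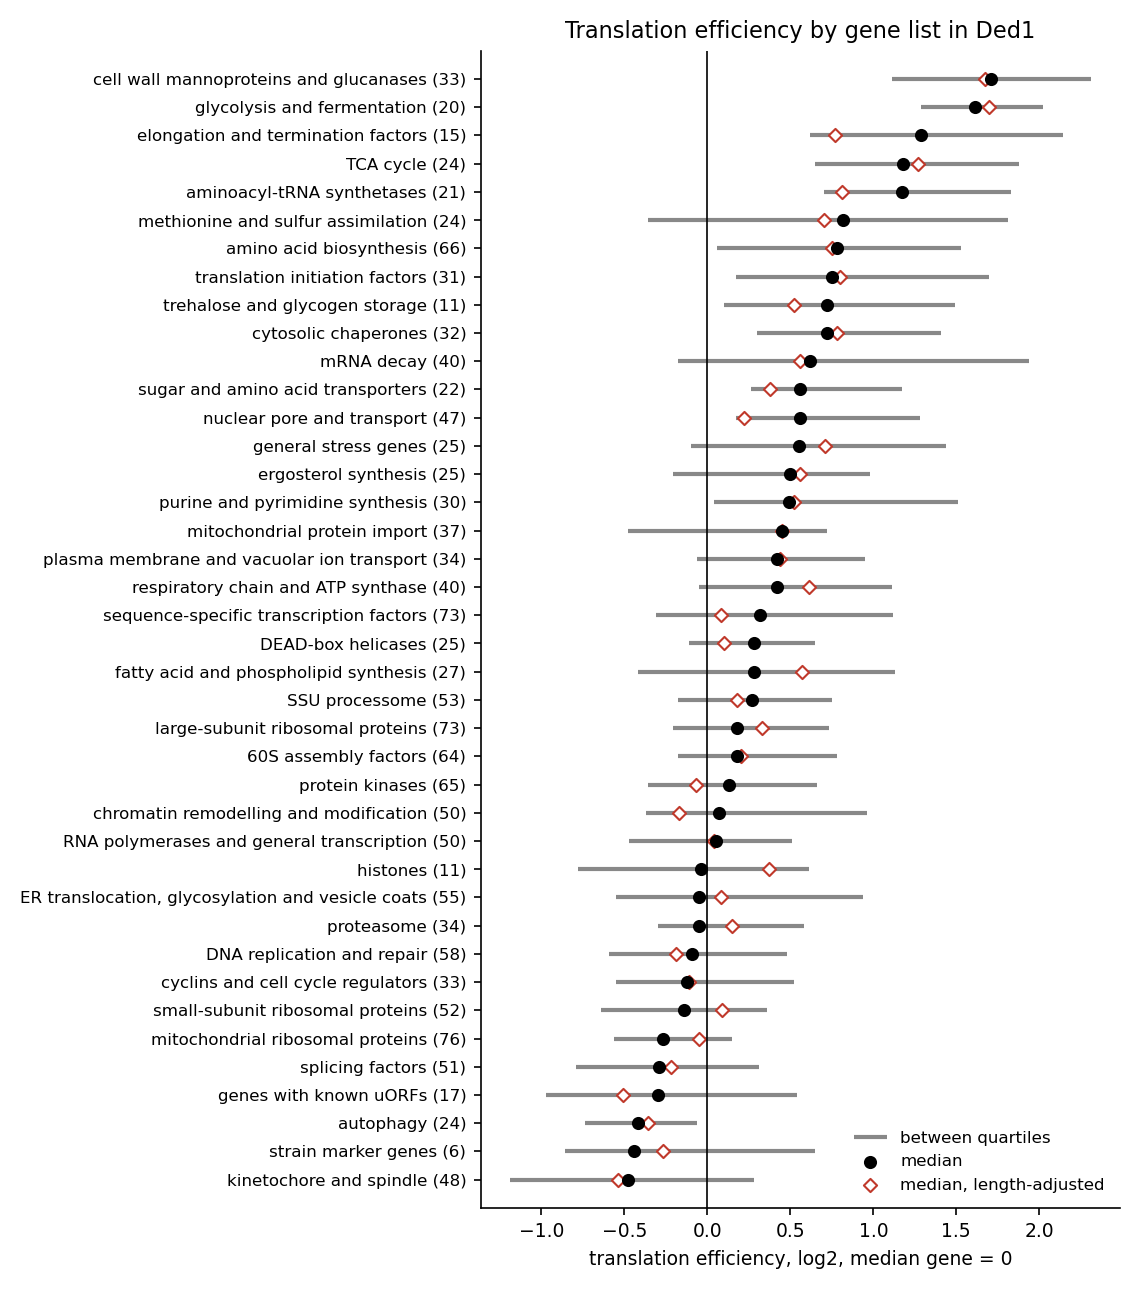
Median translation efficiency (log2, median gene = 0, filled points) and the range between quartiles (bars) for each list with at least 5 measured genes, whose number stands in parentheses; open diamonds are medians against genes of similar length. Cell wall, glycolytic and elongation factor genes are at the top, at 1.71, 1.61 and 1.29, and kinetochore and spindle genes at the bottom, at -0.48.

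Lists of the nucleus and the cell cycle ranged from below to above the median gene. Kinetochore and spindle genes had the lowest median of the lists with at least 5 measured genes, -0.48 over 48 genes, with 4 called higher and 14 lower (29.2% against the background of 12.1%). MCM21, MCM16 and MCM22 of the inner kinetochore were lowest, at -2.19, -2.04 and -1.94. MCM16 had 124 and 125 RPKM of mRNA and 19.4 and 20.7 RPKM of footprints. The tubulin genes TUB1 and TUB2 were at the other end, at 1.98 and 1.96, and TUB2 had 150 and 142 RPKM of mRNA and 365 and 393 RPKM of footprints. Among 33 cyclins and cell cycle regulators, 4 were called higher (2 without footprint replicate 1) and 3 lower, with a median of -0.12. WHI5, which restrains entry into the cycle, was at 2.05 and the mitotic cyclin gene CLB1 at -1.78. DNA replication and repair had a median of -0.09, with 7 of 58 called higher and 4 lower, or 7 lower without footprint replicate 2. RFC5, a subunit of the clamp loader, was at -1.30, and POL2, the catalytic subunit of polymerase epsilon, was at 1.49.

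Histone genes had a median of -0.04 over 11 genes (0.37 against genes of similar length), with 1 called higher, the linker histone gene HHO1 at 1.81, and 1 lower, HTA2 at -1.20. Lower calls numbered 3 without mRNA replicate 1 and 2 without footprint replicate 2, and the core histone genes come in similar copies that share reads. RNA polymerase and general transcription genes had a median of 0.05, with 8 of 50 called higher and 3 lower (5 lower without footprint replicate 2). RPO21, the largest subunit of RNA polymerase II, was at 3.01, and RPC11, a small subunit of RNA polymerase III, at -1.27. Chromatin genes had a median of 0.07, with 12 of 50 called higher (7 without mRNA replicate 2) and 2 lower. SIN3, the scaffold of a histone deacetylase complex, was at 2.20, and ESA1, a histone acetyltransferase, at -1.55. With the reference set to genes of at least 20 RPKM, the medians of these last 2 lists turned below 0, and against genes of similar length that of the chromatin genes was -0.17. Nuclear pore and transport genes were higher, with 15 of 47 called higher and none lower and a median of 0.56, which was 0.22 against genes of similar length. The importin gene KAP123 was at 2.62 and GSP1, which encodes Ran, at 2.53. A single lower call appeared without mRNA replicate 1 or without footprint replicate 1.

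Of 73 measured sequence-specific transcription factors, 22 were called higher (30.1% against the background of 17.1%) and 8 lower (11% against 12.1%). The median was 0.32 (0.08 against genes of similar length), and both HAC1 and GCN4 are members. SKN7 of the oxidative and cell wall stress responses was at 1.73 and MSN2 of the general stress response at 1.70. NRG2, a repressor under glucose, was at -1.52. Protein kinases were near the background, with 10 of 65 called higher (15.4%) and 6 lower (9.23%), with a median of 0.13 (-0.07 against genes of similar length), from SCH9 at 3.50 to YGK3 at -1.88. SSN3, the kinase of the Mediator complex, was at -1.68.

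RNA metabolism divided into groups on both sides of the median gene. Genes of mRNA decay had 16 of 40 called higher and none lower, with a median of 0.62. NAB3, which acts in termination and nuclear decay, had 17.9 and 15.3 RPKM of mRNA, 83.4 and 86.3 RPKM of footprints and an efficiency of 2.94. PAT1, an activator of decapping, was at 2.89 and the RNA-binding repressor gene PUF3 at 2.76. Splicing factors had a median of -0.29, with 3 of 51 called higher and 7 lower. MSL5, which binds the branch point, was at 1.95 and PRP42 of the U1 particle at -1.60. DEAD-box helicases had a median of 0.28 over 25 genes (0.10 against genes of similar length), with 4 called higher and 1 lower. DHH1, which acts in mRNA decay and repression, was at 2.47 and the splicing helicase gene PRP5 at -1.21. DBP1 missed the bound in Ded1, with 5.12 and 4.26 RPKM of mRNA and 8.14 and 7.35 RPKM of footprints.

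Genes known for upstream open reading frames were not uniformly low. Of 17 measured, 2 were called higher and 4 lower, with a median of -0.30. GCN4 and ARV1, which acts in sterol and lipid transport, were at -2.0 and -2.01. ARV1 had 56.8 and 60.1 RPKM of mRNA and 8.12 and 11.3 RPKM of footprints. CBS1, a mitochondrial translational activator, was at -1.11. At the other end SCH9 was at 3.50 and LEU4, which opens leucine synthesis, at 2.25. Few genes of other cell states were measured: 1 of 40 meiosis and sporulation genes was measured, IME4 at -0.63, and 1 of 24 mating and haploid-specific genes, KAR4 at -1.04, which was not called without mRNA replicate 2 or without footprint replicate 1. Of 8 genes commonly used as strain markers, 6 were measured with a median of -0.44, from LEU2 to HIS4 at 1.39, and LEU2 was the single lower call. Both of these genes were higher in replicate 2 in either library type, HIS4 with 215 and 348 RPKM of mRNA and 368 and 619 RPKM of footprints. Lower calls of this list were none, and higher calls 2 in place of 1, without mRNA replicate 2 or without footprint replicate 1. The counted length recovered for LEU2 was 2208 nt, and whether the marker genes are intact in this strain was not tested.

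Read shares weight each gene by its reads and are taken against the whole library, so they need not follow a list's median. The median gene's ratio of 0.654 in pair 1 and 0.677 in pair 2 holds for shares too. A typical gene thus also held a smaller share of the footprints than of the mRNA reads. Ribosomal protein genes held 28.8 ± 0.482% (SD, n = 2) of the mRNA reads and 20.2 ± 0.594% of the footprints. The small subunit went from 14.5 ± 0.296% of mRNA reads to 8.65 ± 0.26% of footprints, and the large subunit from 14.2 ± 0.186% to 11.6 ± 0.334%. Glycolysis and fermentation went the other way, from 7.61 ± 0.238% of mRNA reads to 14.7 ± 1.03% of footprints. The footprint share over the mRNA share was 0.597 for the small subunit, 0.817 for the large subunit and 1.93 for glycolysis and fermentation. The large subunit was thus above the median gene's ratio and the small subunit somewhat below it. The 2 footprint libraries and the 2 mRNA libraries did not overlap in any of these 3 lists. The same held for the SSU processome and the large-subunit assembly factors, whose medians were near the median gene. With 2 libraries of each type, such a gap therefore does not set these 3 lists apart. Cell wall mannoproteins and glucanases went from 1.17 ± 0.0135% to 2.74 ± 0.0216%, elongation and termination factors from 1.39 ± 0.0586% to 2.94 ± 0.0396%, and mitochondrial ribosomal proteins from 1.19 ± 0.0402% to 0.684 ± 0.0128%.

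Footprints were also more concentrated on few genes than mRNA. The 10 genes with most footprints held 15.5% of them, against 10.2% of mRNA reads in the 10 genes with most mRNA. It took 168 genes to make up 50% of the footprints and 260 to make up 50% of the mRNA reads. PDC1 alone held 2.47 ± 0.129% of the footprints and 0.363 ± 0.0535% of the mRNA reads. TDH3, the main glyceraldehyde phosphate dehydrogenase, held 2.03 ± 0.0863% and 1.02 ± 0.00533%. The other genes of this top 10 were FBA1, ADH1, CDC19, YEF3, ENO2, PGK1, PMA1 and RPL3, so 7 of the 10 belong to glycolysis and fermentation. RPL3, a protein of the large subunit, had an efficiency of 0.70 and was not called. At the level of read shares these are proportions of a library, so a list can gain only where others lose.

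**Figure D4:**
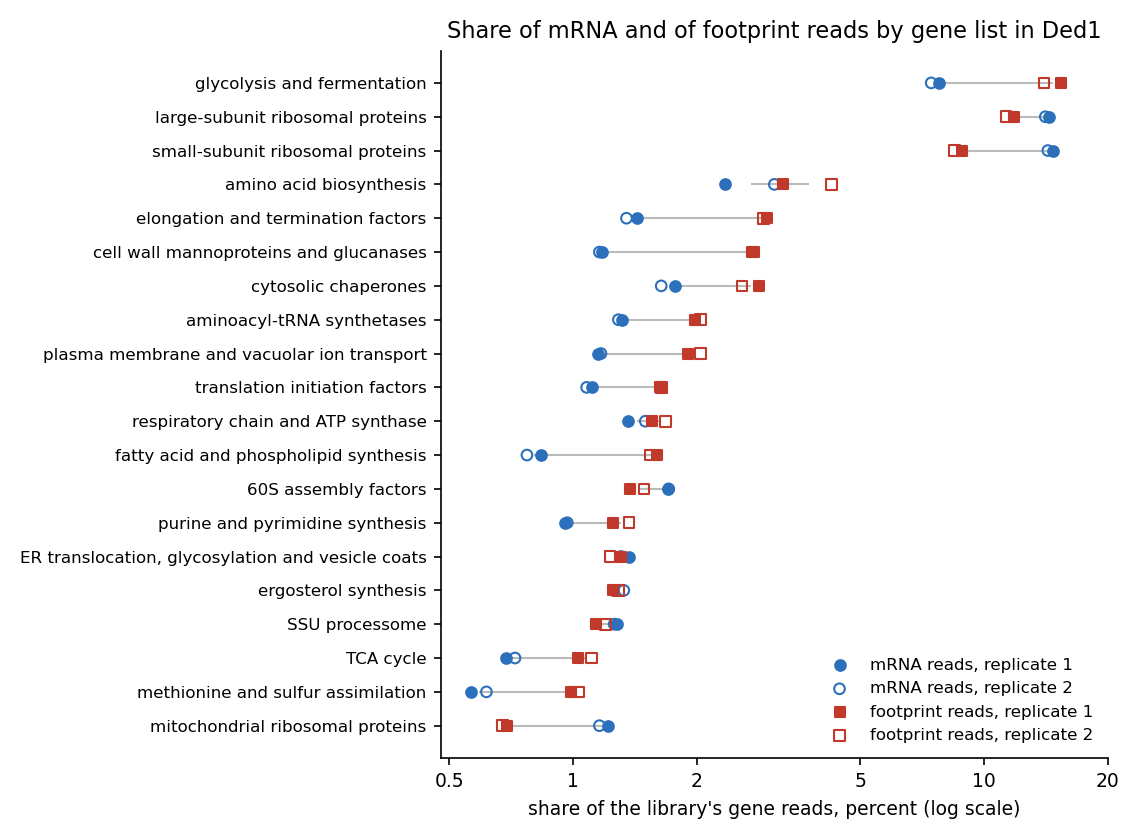
Share of each Ded1 library's gene reads, in percent on a log scale, held by each list with at least 1% of the mRNA or footprint reads, with 1 point per library. Glycolysis and fermentation goes from 7.61% of mRNA reads to 14.7% of footprints, and the small-subunit ribosomal proteins from 14.5% to 8.65%.

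Longer genes had higher efficiencies. Across 4723 genes with a recovered length, Spearman's rho between efficiency and length was 0.25, given as a description since genes share the same 4 libraries. Genes under 300 nt of coding length had a median of -0.13, those of 600 to 1000 nt -0.27, those of 2000 to 3000 nt 0.32 and those of 4500 nt or more 0.92. In that last class 43.8% of 89 genes were called higher and 1.12% lower. ARO1, URA2, FAS1 and FAS2 belong to it. Its median mRNA level was low, at 14.9 RPKM. The bound of 5 RPKM on footprints can therefore keep poorly translated genes out of it, and its few lower calls partly describe the choice of genes. With the bound on mRNA alone, rho between efficiency and length was 0.243. The 2 mRNA libraries of Ded1 were not alike in this respect: the log2 ratio of mRNA replicate 1 to replicate 2 had a rho of 0.335 with length, while that of the footprint libraries had -0.003. The corresponding mRNA values were 0.08 in Dbp1 and -0.045 in 2xDbp1. The relation to length was present in either pair, with a rho of 0.219 in pair 1 and 0.277 in pair 2. The part of length in the differences between gene groups was not tested beyond the medians against genes of similar length given above, and mRNA level itself had a rho of -0.555 with length.

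From 20 RPKM of mRNA upward, the median efficiency differed little between classes of mRNA level, from -0.21 to 0.08. The median was -0.09 for genes of 20 to 50 RPKM of mRNA, -0.21 for 50 to 100 RPKM and 0.06 for 233 genes of 1000 RPKM or more. In the lowest class, 5 to 10 RPKM, it was 0.93, and 47.7% of 151 genes were called higher and 0% lower. The bound of 5 RPKM on footprints keeps poorly translated genes out of that class, so its value describes the choice of genes. For 559 genes of 10 to 20 RPKM the median was 0.39, with 28.3% called higher and 1.43% lower. The same bound also removes poorly translated genes from this class. Over all 4723 genes the rho was -0.116, and with the bound on mRNA alone it was 0.032.

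**Figure D5:**
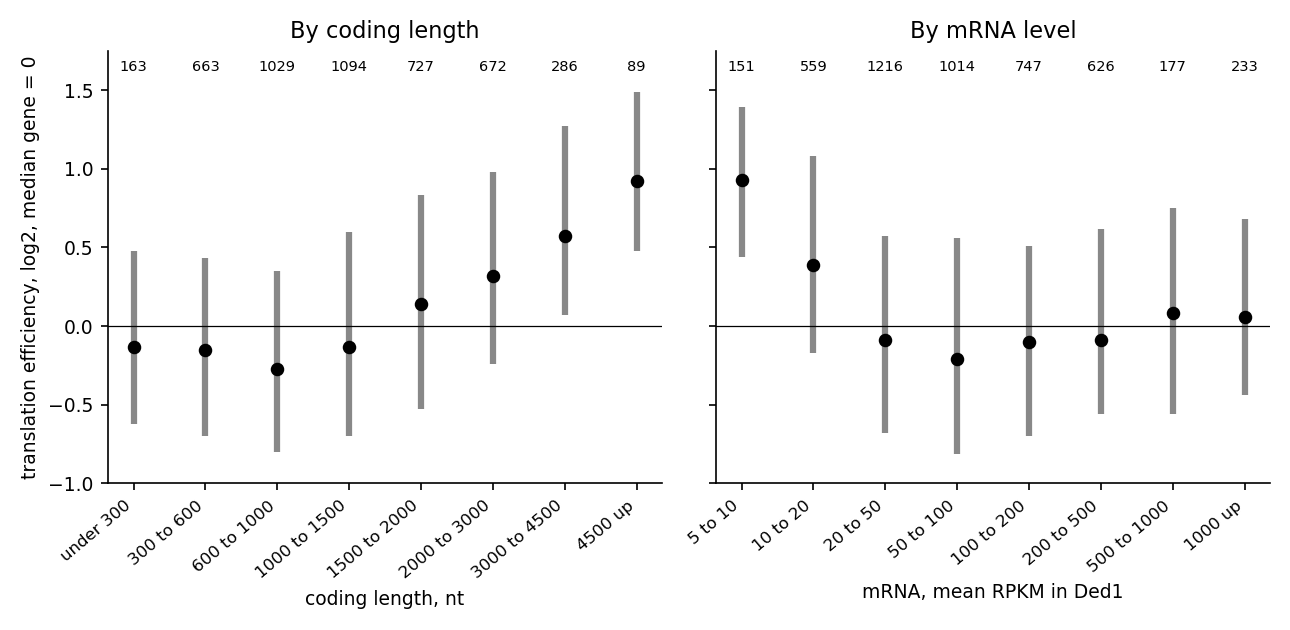
Median translation efficiency (points) and range between quartiles (bars) by coding length in nt (left) and by mean mRNA RPKM (right), with the number of genes above each class. The median goes from -0.13 under 300 nt to 0.92 at 4500 nt and more, and by mRNA level it is highest, 0.93, at 5 to 10 RPKM.

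The bound also left out messages with few footprints. In all, 430 genes had at least 5 RPKM of mRNA and less than 5 RPKM of footprints, and 49 the reverse. Among those 430, TRP1, an enzyme of tryptophan synthesis and a common strain marker, had 70.4 and 83.4 RPKM of mRNA and 0.935 and 0.868 RPKM of footprints. PEX35, which encodes a peroxisomal protein, had 61.5 and 66.9 RPKM of mRNA and 2.68 and 3.13 RPKM of footprints. LPL1, a phospholipase of lipid droplets, had 53.3 and 55.5 RPKM of mRNA and 4.0 and 4.19 RPKM of footprints. RPL41A and RPL41B, the shortest ribosomal protein genes, had 707 and 641 RPKM and 401 and 399 RPKM of mRNA and are listed at 0 in both footprint libraries. The counted length recovered from the values is 18 nt for either gene, and its part in the zeros was not tested.

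Set against the other genotypes, the order of genes in Ded1 was much the same. Efficiencies in Ded1 had a Pearson r across genes of 0.983 with Dbp1 and 0.981 with 2xDbp1. By the same rule 831 genes were called higher and 576 lower in Dbp1 (17.6% and 12.2%), and 869 and 595 in 2xDbp1 (18.4% and 12.6%). Of the 808 genes called higher in Ded1, 731 were called higher in all 3 genotypes (90.5%), as were 463 of the 571 lower ones (81.1%). Calls shared with Dbp1 were 94.4% of the higher genes of Ded1 and 91.8% of those of Dbp1, and no gene was called in opposite directions in Ded1 and either other genotype. List medians behaved alike: glycolysis and fermentation was at 1.61 in Ded1, at 1.68 in Dbp1 and at 1.85 in 2xDbp1, and kinetochore and spindle genes at -0.48, -0.52 and -0.43.

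The difference itself was tested in 1 limma fit over all 12 libraries, with the efficiency in Ded1 set against the mean of the other genotypes. Of 4785 genes 2 were called at an adjusted p under 0.05 (0.0418%), DED1 and DBP1, the genes that define the genotypes. Each passed the bound of 5 RPKM over all 12 libraries only through the genotypes that express it, so their values are given as a description and not as a difference in efficiency. For DED1, Ded1 minus the mean of the others was 3.05 ± 0.23 (log2 ± SE). Its footprint to mRNA ratio was 11.3 and 11.9 in Ded1, against 1.09 and 1.60 in Dbp1 and against 1.78 and 1.29 in 2xDbp1. In those genotypes DED1 mRNA was at most 2.81 RPKM and its footprints at most 4.51 RPKM, so the ratios there rest on few reads. For DBP1 the value was -1.82 ± 0.118. The DBP1 ratio was 1.59 and 1.72 in Ded1, against 5.71 and 5.46 in Dbp1 and against 5.92 and 6.15 in 2xDbp1, and its Ded1 mRNA was at 5.12 and 4.26 RPKM. With same-numbered libraries as pairs, 4 genes were called, which adds RTN2, a reticulon-like gene (limma adjusted p = 0.000368), and GSC2, a glucan synthase gene (limma adjusted p = 0.026). RTN2 footprints in Ded1 were at 3.28 and 3.67 RPKM, under the bound of 5 RPKM, which it passed through the other genotypes. Its call is therefore also given as a description and not as a difference in efficiency. RTN2 had a ratio of 0.168 and 0.187 in Ded1, against 0.723 and 0.632 in Dbp1 and against 0.475 and 0.407 in 2xDbp1. GSC2 had 0.907 and 0.945 in Ded1, against 2.04 and 1.81 in Dbp1 and against 2.27 and 3.02 in 2xDbp1. Its Ded1 levels were close to the bound, at 5.99 and 5.25 RPKM of mRNA and 5.43 and 4.96 RPKM of footprints. Its Dbp1 mRNA libraries differed, at 13.1 and 5.12 RPKM. Without the pairing, limma's adjusted p was 0.899 for RTN2 and 0.999 for GSC2. At an unadjusted p under 0.05 there were 202 genes, or 476 with the pairing.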

How the data were processed

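Per the labels, ribosome footprints of 28 to 31 nt and poly(A) mRNA fragments of 50 nt were sequenced. The submitters' processing notes name CASAVA, bcl2fastq 2.17 and Bowtie2. The genome build, the annotation, strand use and how reads were counted are not stated by any source used here, so reads of a gene and of an antisense or overlapping partner cannot be told apart. How reads shared by similar gene copies were assigned is likewise unknown. This holds in any list, also those of glycolysis and of chaperones. The authors deposited RPKM values, 1 column per library, and that unit was read from the values. Each value times a counted length (coding length minus 60 nt, or solved from the values) and a library total gave whole reads within 0.02 for 5723 genes (95.8% of non-zero genes) in all 12 libraries. Depth and read shares come from these reads, and intervals from them cover counting error only.

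Of 6159 IDs, 5637 matched the R64 gene table, used for names, lengths and overlaps only. From the deposited RPKM, limma 3.58.1 in R 4.3.3, with a trended empirical Bayes step, was run on log2(RPKM + 0.1): footprint against mRNA over the 4 Ded1 libraries, and footprint against mRNA by genotype over all 12. A fold change on this scale understates the change of low genes. The median log2 ratio of each pair was set to 0 in the first fit. P-values were 2-sided and Benjamini-Hochberg adjusted over all genes tested. The fit was also run on simulated counts with known changes, drawn independently for each library and so without pairing. The outcome is not given here, and no result above rests on it. Tables used Python 3.11.15, pandas 2.3.3, numpy 2.4.6 and matplotlib 3.10.9.

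Same-numbered mRNA and footprint libraries deviated together from their group means (correlations of 0.477 in Ded1, 0.649 in Dbp1 and 0.404 in 2xDbp1 over 4785 genes). The numbers were therefore taken to pair the samples in the ratios. The main fits held no replicate block, and the pairing entered a test only where this is stated. The genes and the 42 gene lists were chosen with earlier results of these data known, and lists are described by counts and medians with no set test. Text genes are the 12 highest and 12 lowest called genes with a standard name, at least 10 RPKM in both types and no overlap with a named gene. Beside them stand the highest and lowest member of each list and up to 2 further called members at either end, DED1 and DBP1, the 10 genes with most footprints and genes called between genotypes. Genes named for another reason were chosen after their values were seen, which holds for YMR013W-A, genes left out by the bound and TUB2. Other pseudocounts, bounds, centrings, folds and left-out libraries were tried.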

Additional observations from a re-analysis of the deposited data

Results flagged for a closer look

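Limma's test over 12 libraries called the footprint to mRNA ratio of both helicase genes between Ded1 and the mean of the other genotypes. The value was 3.05 (log2) for DED1, whose mRNA was under 3 RPKM in the other genotypes. It was -1.82 for DBP1, whose mRNA was at 5.12 and 4.26 RPKM in Ded1 and at 100 to 156 RPKM in the others. Each gene passed the bound of 5 RPKM only through the genotypes built to express it, so the calls do not show a difference in translation efficiency, and what part the low levels have in the ratios was not tested.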

How the results depend on the processing

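Against the counts of 808 higher and 571 lower genes, a bound of 20 RPKM gave 488 and 310, no centring 335 and 1526, no minimum fold 1749 and 1715, and a minimum of 4-fold 175 and 74. With no bound on RPKM, 932 genes were lower. Leaving out 1 library at a time gave 771 to 852 higher and 552 to 616 lower genes. With the replicate block the counts were 810 and 576. The block moved the genes called against the other genotypes from 2 to 4, by adding RTN2 and GSC2. RTN2 passed the bound of 5 RPKM on footprints only through the other genotypes, and GSC2 lay close to that bound in Ded1. Among the single genes printed the block changed 1 other call, PTR2, which it adds (limma adjusted p = 2.74e-09). The rank correlation of efficiency with length was 0.316 at a bound of 20 RPKM, and that with mRNA level was -0.197 there and 0.032 with the bound on mRNA alone.

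Genes close to the median gene changed sign. Without centring CDC15 was at -0.11, GPM1 at -0.35 and GSC2 at -0.11. With the bound on mRNA alone CHS1 was at 0.04 and WRS1 at 0.02, with no bound they were at 0.07 and 0.06, and CHS1 was at -0.12 to 0.0 without 1 footprint replicate. LYS5, KAR4, LEU2, URA10, MSC1, COX5B and RSM26 were each not called in at least 1 fit without a library. The cause was not tested. List medians moved by at most 0.29 without a library and by -0.52 to 0.41 against genes of similar length. With the bound on mRNA alone they moved by -0.40 to 0.10, and 3 of 40 changed sign. With no bound they moved by -0.32 to 0.20 (5 sign changes), and at a bound of 20 RPKM by -0.27 to 0.27 (2 sign changes). Start codon context was not run, since it needs a genome. Depth limits genes near 5 RPKM most, where a value rests on 38.1 to 65.6 reads per kilobase and library.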
